A study of Mus musculus with 35 samples.

Results

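Whether a cell leaves G1 for S phase depends on cyclins that activate cyclin-dependent kinases (CDKs) and on inhibitors that hold those kinases back. Both kinds of gene are described here, 9 in all, chosen by their symbols. They are the D-type cyclins Ccnd1, Ccnd2 and Ccnd3, the E-type cyclins Ccne1 and Ccne2, the Cip/Kip inhibitors Cdkn1a and Cdkn1b, and the Ink4 inhibitors Cdkn2a and Cdkn2b. They were 9 of the 44853 genes in the induction table, and all 9 passed the filter on low values. In the siRNA table, which holds 6275 genes that the authors called GATA6-responsive, 7 of the 9 were measured, and Ccne2 and Cdkn2a were not analysed there.

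RNA was measured in mouse KH2 ES cells, of mixed C57BL/6 x 129/Sv origin, that carry a doxycycline (Dox)-inducible gata6 cassette, so that Dox drives the endoderm factor GATA6. All ES libraries came from cells grown in serum with LIF on mitomycin C-inactivated mouse embryonic fibroblasts, which were mostly removed by letting them settle on plastic for 20 min before lysis. The groups were untreated cells (0 h) and cells given 1 µg/mL Dox for 16, 24, 48, 72, 96 or 168 h, with 3 libraries each, and XEN cells, a line of extra-embryonic endoderm (X10, CD1, wild type, no Dox and no LIF), with 2 libraries. In a second experiment, cells of 1 clone with the cassette received control siRNA (siCTL) or siRNA against Oct4 (siOct4) and 48 h of Dox, with 6 libraries each. Per the study's methods, XEN cells were also grown in serum on feeders. XEN cells differ from the ES cells in line, strain and LIF as well as in cell type, and these cannot be told apart. The clone used for the time course is not given in the sources used here.

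D-type cyclins bind CDK4 and CDK6, E-type cyclins bind CDK2, and both kinds of complex phosphorylate the retinoblastoma family, which releases E2F factors to drive S-phase genes. Ink4 proteins bind CDK4 and CDK6 directly, while Cip/Kip proteins act mainly on the cyclin E-CDK2 complex. Mouse ES cells are known for a short G1 phase with high cyclin E and little inhibitor, and lengthening of G1 is a known feature of their differentiation. All values below are RNA levels, and none measures protein, kinase activity or cell cycle phase.

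The sequences just upstream of a pair of these genes are shown because Cdkn1a was the inhibitor and Ccne1 the E-type cyclin with the largest changes described below. RefSeq windows of GRCm38.p6, from 250 bases before to 50 after a transcription start, matched 6 of the 9 genes in 9 windows. Ccnd1, Ccnd2 and Ccne2 had no window. The first line is the stretch before Cdkn1a at chr17:29090729-29090975 on the plus strand, and its capitals mark a match to the p53 motif. The second is the stretch before Ccne1 at chr7:38107535-38107740 on the minus strand, and its capitals mark SP1 boxes.
Cdkn1a: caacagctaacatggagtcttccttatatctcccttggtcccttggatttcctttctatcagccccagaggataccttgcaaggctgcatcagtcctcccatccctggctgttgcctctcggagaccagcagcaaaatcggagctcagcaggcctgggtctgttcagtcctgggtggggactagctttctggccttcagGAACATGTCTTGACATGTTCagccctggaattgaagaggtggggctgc
Ccne1: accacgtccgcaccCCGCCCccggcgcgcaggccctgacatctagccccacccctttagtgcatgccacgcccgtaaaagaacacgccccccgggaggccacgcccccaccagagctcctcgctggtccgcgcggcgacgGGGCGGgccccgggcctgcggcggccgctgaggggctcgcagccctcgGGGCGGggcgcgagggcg
The p53 motif was taken as 20 letters made of 2 half-sites with no gap between them, with at most 1 mismatch and the core C and G letters fixed. Of 32851 windows of all genes 22 held it (0.067%), and among the 9 windows only the first Cdkn1a window did. Its first base there is 51 bases upstream of that window's start. Cdkn1a has a second window at another start, chr17:29093519-29093818, which did not hold the motif. The SP1 box, GGGCGG on either strand, was in 8 of the 9 windows and in 35.7% of all windows. An E2F motif (TTTCCCGC, TTTCGCGC, TTTGCCGC or TTTGGCGC on either strand) was in 1 of the 9, the first Cdkn2a window, and in 2.26% of all windows. GATA motifs (AGATAA or TGATAA on either strand) were in 0 of the 9 and in 18.6% of all windows. Motif matches describe letters in these windows and do not show binding.

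The labelled cell types were checked against marker genes. The summed level of 5 ES markers was 2713 to 2960 TPM (transcript counts per length, scaled to a fixed total per library) at 0 h, 75.4 to 154 at 168 h and 3.51 to 4.15 in XEN, and the sum of 7 primitive endoderm (PrE) markers was 3.10 to 4.44, 2000 to 2220 and 1588 to 1603 in the same order. Gata6 averaged 0.264 TPM at 0 h, 134 at 16 h and 344 at 168 h, and 346 in XEN, although these values do not separate the cassette from the endogenous gene. The library labelled 72 h replicate 3 stood apart. Its correlation across genes with the other 72 h libraries was 0.970 and 0.972, against at least 0.985 with each 96 h library, so values at 72 h are also given without it. RNA of fibroblast marker genes was present, and whether it came from the feeders was not tested. The sum of 10 such markers was 36.3 to 112 TPM at 0 h, 127 to 282 at 168 h and 94.0 to 98.7 in XEN. At 168 h 6 of the 9 markers tested were called higher, beside 22.6% of all genes tested. The sum was highest in replicate 3 in 6 of the 7 ES groups. Thy1 was at 4.63, 4.75 and 23.8 TPM in the 0 h libraries and at 1.88, 1.20 and 33.0 in the 168 h libraries. Among those markers Fap was at 0.0609 TPM at 0 h and at 0 in XEN, while Col1a1, Col1a2 and Col3a1 were at 46.7, 51.8 and 46.8 TPM at 168 h. In such bulk samples, fewer cells of a type and less RNA per cell cannot be told apart.

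By 168 h of GATA6 induction the cyclin genes Ccnd1 and Ccne1 had fallen, and the cyclin gene Ccnd2 and the inhibitor genes Cdkn1a, Cdkn1b and Cdkn2b had risen. A change is the difference between group means of log2(TPM + 1), given with its SE. It was called when limma's adjusted p over the 15057 genes tested was under 0.05 and the change was over 1 in size. At 168 h 4 of the 9 genes were called higher and 2 lower, beside 22.6% and 16.5% of all genes tested (39.1% in either direction). The median change was 0.89 over the 9 genes and 0.09 over all genes tested. At 1 or more of the 6 Dox times 7 of the 9 were called, against 45.4% of all genes, and Ccne2 and Cdkn2a were the exceptions.

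**Figure D1:**
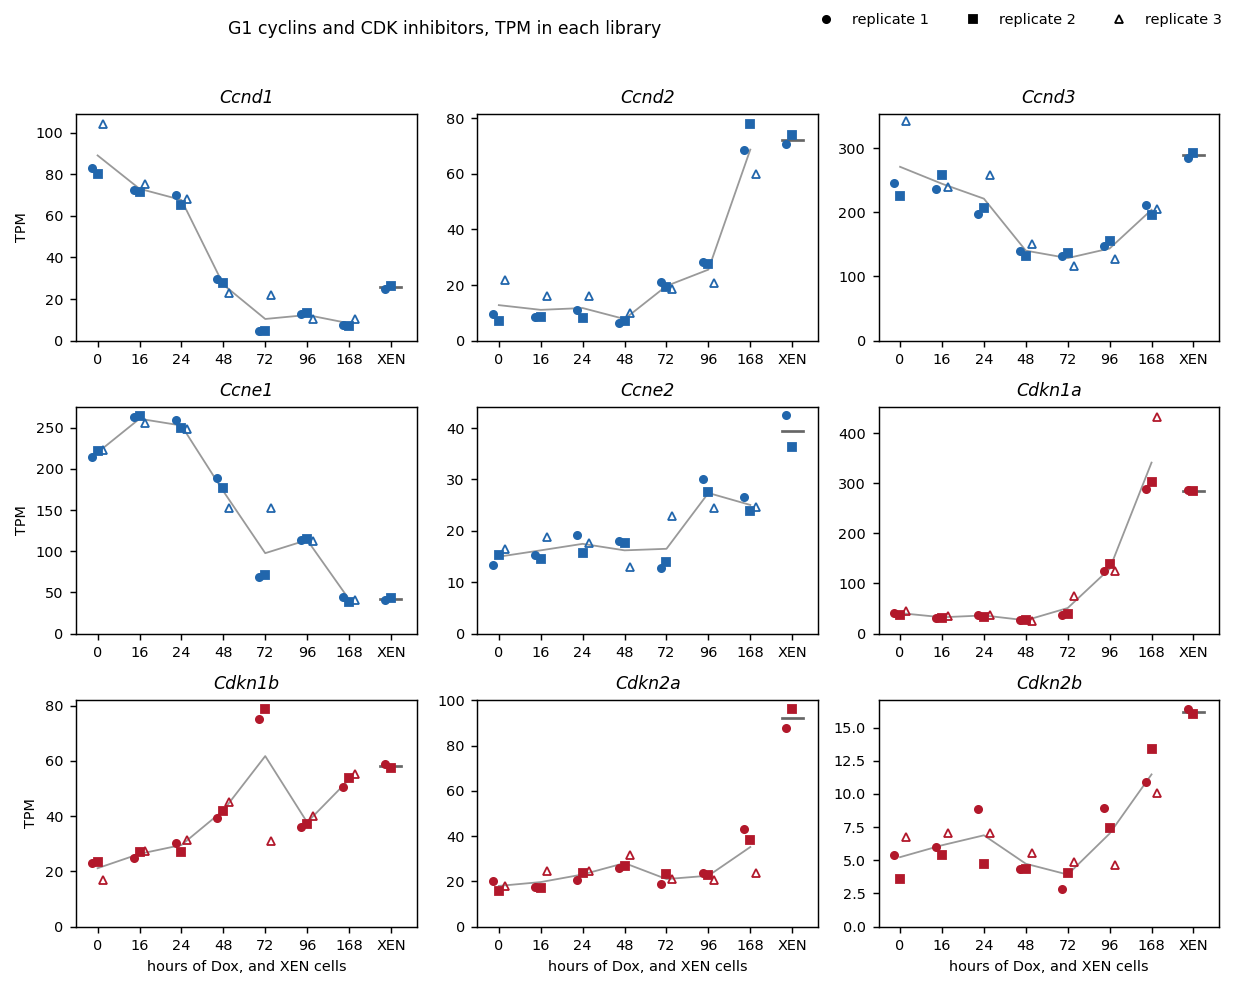
Level (TPM, linear axes from 0, each with its own scale) of each of the 9 genes in every induction library, by hours of Dox and in XEN cells. Replicate 3 is drawn as open triangles, and lines run through group means. Ccnd1 and Ccne1 have their lowest means at 168 h, 8.36 and 41.6 TPM, but do not fall at every step. Cdkn1a climbs from 26.5 TPM at 48 h to 341 at 168 h.

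The first calls among the 9 genes came at 48 h. At 16 h and at 24 h 0 of the 9 genes were called, where 2.77% and 5.68% of all genes were, and their changes lay between -0.32 and 0.32 at 16 h and between -0.38 and 0.48 at 24 h. Of the 9, 0 at 16 h and 2 at 24 h (Ccnd3 and Cdkn1b) had an unadjusted limma p under 0.05. Of all 15057 genes tested, 3720 had one at 16 h and 5812 at 24 h. At 48 h 1 was called, Ccnd1, against 7.26% of all genes called lower and 16.4% called in all. At 72 h 3 were called lower and 1 higher, against 11.5% and 14.7% of all genes (26.2% in all). At 96 h 1 was lower and 2 were higher, against 14.1% and 15.4% (29.5% in all).

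**Figure D2:**
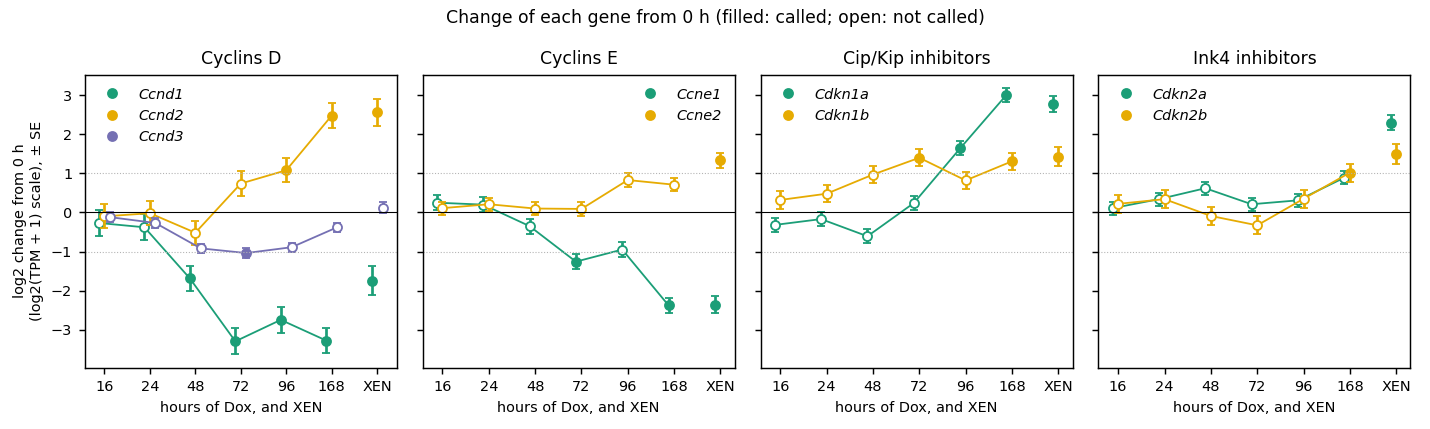
Change from 0 h (log2 scale of TPM + 1) of each of the 9 genes at each Dox time and in XEN cells, with limma's SE. Filled points passed the adjusted p and the minimum change of 1. At 16 h and 24 h 0 of the 9 are filled, and at 168 h 6 are.

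Ccnd1 (chr7:144929931-144939925, minus strand, mm10) encodes cyclin D1, a target of mitogen signalling in many cells. Its level in the 0 h libraries was 82.9, 80.3 and 104 TPM, in the 24 h libraries 69.9, 65.0 and 68.1, and in the 48 h libraries 29.8, 27.9 and 23.1. The 72 h libraries were at 4.73, 4.71 and 21.8 TPM, the 96 h libraries at 12.9, 13.5 and 10.6, and the 168 h libraries at 7.65, 6.87 and 10.5. Every library from 48 h on was below every earlier one, and at 72 h replicate 3 was far above the other two. The change from 0 h was -1.69 ± 0.33 at 48 h (limma adjusted p = 2.85e-04), -3.30 ± 0.33 at 72 h (limma adjusted p = 5.38e-08) and -3.28 ± 0.33 at 168 h (limma adjusted p = 3.59e-08). Without 72 h replicate 3 the change at 72 h was -3.97. Between neighbouring times Ccnd1 fell by 1.30 ± 0.33 from 24 to 48 h (limma adjusted p = 0.00482, where 5.56% of all genes were called) and by 1.62 ± 0.33 from 48 to 72 h (limma adjusted p = 0.00143, where 3.33% were called). With genes of low values kept in, the adjusted p of the first step was 0.0727, and fitted on the 48 h and 72 h libraries alone that of the second was 0.0950. In the order of group means, 168 h, 72 h, 96 h, XEN, 48 h, 24 h, 16 h and 0 h, the neighbours that differed with a limma adjusted p under the threshold were 96 h and XEN (0.0322) and 48 h and 24 h (0.00482).

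Ccnd2 (chr6:127125162-127152193, minus strand) encodes cyclin D2, which binds the same kinases. It was at 9.60, 6.90 and 21.8 TPM at 0 h, where replicate 3 was highest, and at 6.23, 7.09 and 9.99 at 48 h. It was then at 21.1, 19.3 and 18.6 TPM at 72 h, at 28.2, 27.5 and 20.9 at 96 h, and at 68.4, 77.9 and 59.8 at 168 h. The 72 h and 96 h libraries overlapped the range at 0 h because of its replicate 3, and the 168 h libraries did not. The change from 0 h was 1.08 ± 0.31 at 96 h (limma adjusted p = 0.00416) and 2.48 ± 0.31 at 168 h (limma adjusted p = 5.05e-07). It rose by 1.26 ± 0.31 from 48 to 72 h (limma adjusted p = 0.00481) and by 1.40 ± 0.31 from 96 to 168 h (limma adjusted p = 0.00119, where 7.67% of all genes were called). Without replicate 3 in every ES group the change was 1.66 at 96 h and 3.01 at 168 h, and the 72 h change of 0.74 became a called 1.21. Without 0 h replicate 1 or 2 the 96 h change was 0.97 or 0.76 and was not called.

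Ccnd3 (chr17:47505051-47599691, plus strand) encodes cyclin D3 and had the highest level of the D-type cyclins in every group. The untreated libraries held 246, 225 and 342 TPM, those of 48 h held 139, 132 and 149.9, those of 72 h held 132, 137 and 117, and those of 168 h held 211, 196 and 205. The 48 h, 72 h and 168 h libraries were all below those at 0 h. It fell by 1.04 ± 0.12 by 72 h (limma adjusted p = 4.84e-07), just past the minimum. Without 72 h replicate 3 the value was -0.98, without 0 h replicate 3 it was -0.86, and neither was called. At 168 h the change was -0.38 ± 0.12 (limma adjusted p = 0.00963), under the minimum.

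The D-type cyclins together summed to 372 ± 83.4 TPM (SD, n = 3) at 0 h, 159 ± 1.48 at 72 h, 281 ± 5.78 at 168 h and 387 ± 9.27 (n = 2) in XEN. Within that sum Ccnd1 and Ccnd2 changed places. Ccnd1 made up 24.2% ± 1.76 of it at 0 h and 2.98% ± 0.742 at 168 h (SD, n = 3). Ccnd2 made up 3.24% ± 1.27 at 0 h and 24.4% ± 3.07 at 168 h, and Ccnd3 made up a mean of 72.6% at both times. TPM is scaled to transcript length, so these shares compare levels between genes.

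**Figure D3:**
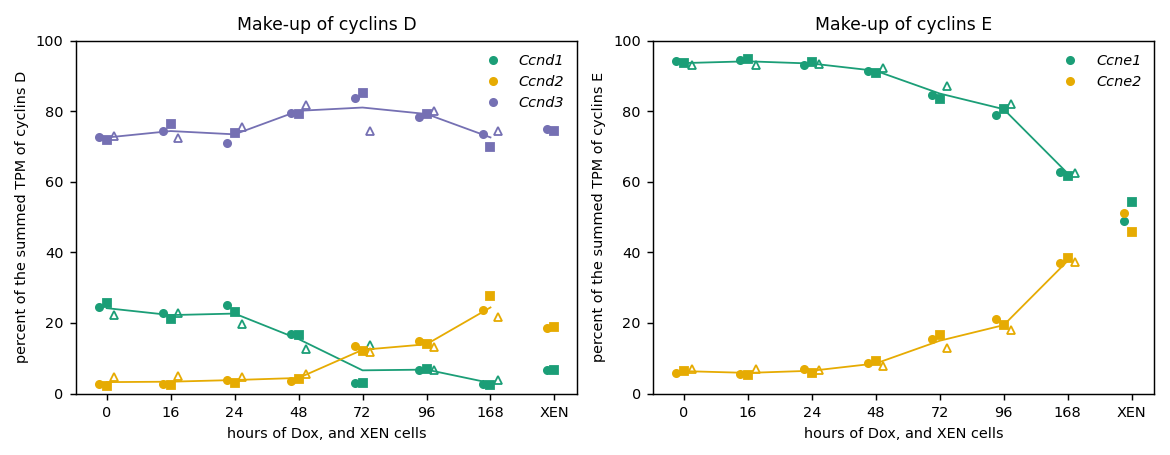
Share (percent of summed TPM) of each gene within the D-type cyclins (left) and the E-type cyclins (right), with a point per library, open triangles for replicate 3 and lines through group means. Ccnd1 goes from 24.2% to 2.98% of the D-type sum between 0 h and 168 h, while Ccnd2 goes from 3.24% to 24.4%.

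Ccne1 (chr7:38097984-38107534, minus strand) encodes cyclin E1, the partner of CDK2, and its upstream stretch with 3 SP1 boxes is printed above. Untreated cells had 215, 222 and 223 TPM and cells given Dox for 16 h had 263, 264 and 256. The level was then 189, 177 and 153 TPM by 48 h, 114, 115 and 112 by 96 h, and 45.0, 38.5 and 41.4 by 168 h. At 16 h every library was above every library at 0 h, and from 48 h on every library was below them. At 72 h it was at 69.0, 71.1 and 153 TPM, and replicate 3 again stood apart. The change was -1.26 ± 0.19 at 72 h (limma adjusted p = 6.83e-06), or -1.64 without replicate 3, and -0.95 at 96 h (limma adjusted p = 1.61e-04), under the minimum. It fell by 1.43 ± 0.19 from 96 to 168 h (limma adjusted p = 6.64e-06), when the change from 0 h was -2.38 ± 0.19 (limma adjusted p = 7.22e-10).

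Ccne2 (chr4:11191351-11204779, plus strand) encodes the second E-type cyclin, cyclin E2, and was not called at any Dox time. Its untreated libraries held 13.3, 15.2 and 16.4 TPM, those of 96 h held 30.1, 27.6 and 24.4, and those of 168 h held 26.5, 23.9 and 24.7. The groups at 96 h and 168 h did not overlap that at 0 h, with changes of 0.83 (limma adjusted p = 2.41e-04) and 0.71 ± 0.17 (limma adjusted p = 8.83e-04), both under the minimum. Summed cyclin E RNA was 235 ± 5.77 TPM at 0 h and 66.7 ± 4.61 at 168 h (SD, n = 3). The mean share of Ccne2 in it was 6.36% at 0 h, 19.4% at 96 h and 37.6% ± 0.661 at 168 h.

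Cdkn1a (chr17:29090976-29100727, plus strand) encodes the Cip/Kip inhibitor p21, a known target of p53, and had the largest rise among the inhibitors. It was at 41.2, 37.1 and 44.5 TPM at 0 h and lower, at 27.4, 26.6 and 25.5, at 48 h, a change of -0.61 ± 0.18 (limma adjusted p = 0.00940) that was under the minimum. At 72 h it was at 38.0, 39.2 and 75.9 TPM, at 96 h at 125, 138 and 125, and at 168 h at 289, 303 and 432. All 96 h and 168 h libraries were above all earlier ones, and replicate 3 was highest at 72 h and 168 h. The change from 0 h was 1.64 ± 0.18 at 96 h (limma adjusted p = 1.95e-07) and 3.01 ± 0.18 at 168 h (limma adjusted p = 1.93e-11). It rose by 1.40 ± 0.18 from 72 to 96 h (limma adjusted p = 1.67e-04, where 1.71% of all genes were called) and by 1.37 ± 0.18 from 96 to 168 h (limma adjusted p = 9.82e-06). The first of these steps was 1.72 without 72 h replicate 3, and on the 72 h and 96 h libraries alone its adjusted p was 0.0803. The 168 h change was 2.89 without replicate 3 in every ES group, the replicate in which the fibroblast markers were highest in 6 of 7 groups.

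Cdkn1b (chr6:134920401-134925513, plus strand) encodes p27, the other Cip/Kip inhibitor analysed as a member, whose protein is known to be controlled largely by degradation. It started at 22.9, 23.5 and 17.0 TPM in untreated cells and reached 39.3, 41.9 and 45.1 by 48 h. The 96 h libraries were at 36.0, 37.2 and 40.1 TPM, and the 168 h libraries at 50.7, 53.9 and 55.2. The groups from 48 h on were above that at 0 h in every library. At 72 h it was at 75.3, 79.0 and 31.0 TPM, with replicate 3 below the other two, and the change of 1.40 ± 0.22 (limma adjusted p = 1.57e-05) was 1.83 without that library. The change was 0.97 ± 0.22 at 48 h (limma adjusted p = 9.90e-04) and 0.82 at 96 h (limma adjusted p = 0.00282), both under the minimum, and 1.31 ± 0.22 at 168 h (limma adjusted p = 2.62e-05). No neighbours in the order of its group means differed with an adjusted p under the threshold.

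Cdkn1a and Cdkn1b together summed to 62.1 ± 1.80 TPM (SD, n = 3) in untreated cells, to 113 ± 5.64 by 72 h, to 395 ± 80.6 by 168 h, and to 343 ± 1.92 (n = 2) in XEN. The higher of the pair changed with time. Cdkn1b made up a mean of 34.0% of the sum at 0 h, 61.3% at 48 h and 13.8% at 168 h.

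Cdkn2a (chr4:89274471-89294653, minus strand) and Cdkn2b (chr4:89306299-89311039, minus strand) lie 11645 bases apart. Cdkn2a encodes both p16Ink4a and p19Arf, which the gene-level value does not separate, and Cdkn2b encodes p15Ink4b. Cdkn2a was at 20.0, 15.9 and 18.0 TPM in untreated cells, reached 26.0, 26.6 and 31.6 by 48 h, and 43.2, 38.4 and 23.9 by 168 h, where replicate 3 was lowest. The groups at 48 h and 168 h did not overlap that at 0 h, but the changes of 0.62 ± 0.17 (limma adjusted p = 0.00469) and 0.89 ± 0.17 (limma adjusted p = 9.44e-05) were under the minimum. Without replicate 3 in every ES group the 168 h change was 1.15 and was called. Cdkn2b was at 5.38, 3.59 and 6.72 TPM in untreated cells, then 2.84, 4.05 and 4.86 by 72 h, and 10.9, 13.4 and 10.1 by 168 h. All 168 h libraries were above those at 0 h, a rise of 1.02 ± 0.23 (limma adjusted p = 4.91e-04) that lay just past the minimum. It was 0.86 with median-of-ratios scaling, 0.82 without 0 h replicate 2 and 0.91 without 168 h replicate 2, and was not called in any of these.

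XEN cells served as the reference for stable extra-embryonic endoderm. Compared with 0 h, 6 of the 9 genes were called higher and 2 lower in XEN, against 18.9% and 18.7% of all genes tested (37.6% in all). Compared with 168 h, 2 were called, both higher, against 4.73% of all genes called higher and 13.9% in all. Both comparisons use the same XEN libraries. With median-of-ratios scaling the all-gene median of the XEN to 168 h comparison went from -0.14 to -0.02, and 46.5% of its calls were higher instead of 34.0%. That scaling also took the all-gene median at 168 h from 0.09 to -0.05.

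The genes called between XEN and 168 h were Cdkn2a and Ccnd1. Cdkn2a was at 88.0 and 96.2 TPM in the XEN libraries, above all ES libraries, and 1.40 ± 0.19 above 168 h (limma adjusted p = 6.65e-06). Ccnd1 was at 24.9 and 26.3 TPM in XEN, above the 168 h libraries and far below those at 0 h, and 1.53 ± 0.37 above 168 h (limma adjusted p = 0.00224). Ccne2 was at 42.6 and 36.4 TPM in XEN, 1.34 ± 0.19 above 0 h (limma adjusted p = 3.20e-06) and 0.63 ± 0.19 above 168 h (limma adjusted p = 0.00924, under the minimum). Ccne2 made up 48.4% ± 3.81 (SD, n = 2) of the summed cyclin E level in XEN.

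Other genes had levels in XEN near those at 168 h. Ccnd2 was at 70.6 and 74.0 TPM, Ccne1 at 40.7 and 43.2, Cdkn1a at 286 and 285 and Cdkn1b at 59.0 and 57.5. Their changes from 168 h were 0.08, 0.01, -0.23 and 0.13, with limma adjusted p of 0.875, 0.974, 0.369 and 0.706, which does not show that the levels were equal. Ccnd3 was at 285 and 293 TPM in XEN, 0.12 above 0 h (limma adjusted p = 0.459) and 0.50 ± 0.14 above 168 h (limma adjusted p = 0.00575, under the minimum). Cdkn2b was at 16.4 and 16.0 TPM in XEN, 1.50 ± 0.26 above 0 h (limma adjusted p = 3.36e-05).

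Other genes of the same machinery were taken from lists chosen with earlier results of these data known. They cover kinases, inhibitors, pocket proteins, E2F and DP factors, G1/S genes, degradation genes, MYC genes and p53 with its targets. For the counts below, 22.6% of all genes tested were called higher at 168 h and 16.5% lower. Of 4 kinases at 168 h, Cdk2 rose by 1.24 ± 0.10 (limma adjusted p = 9.72e-10), from a mean of 62.2 TPM to 149, and Cdk6 fell by 3.98 ± 0.28 (limma adjusted p = 1.22e-10), from 29.3 ± 3.66 to 1.00 ± 0.720 TPM (SD, n = 3). Cdk6, a partner of the D-type cyclins, was already lower at 16 h (-1.25 ± 0.28, limma adjusted p = 0.00410), when 0 of the 9 genes were called. Cdk4, the other partner, averaged 408 TPM at 0 h and 304 at 168 h and was not called.

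The remaining Ink4 genes, Cdkn2c and Cdkn2d, rose by 1.74 ± 0.17 and 1.49 ± 0.11 at 168 h. Cdkn1c, the third Cip/Kip gene (p57), was higher at 72 h (1.79 ± 0.25, limma adjusted p = 4.35e-06) and 96 h (1.30, limma adjusted p = 1.54e-04) and not called at 168 h. Its mean went from 14.7 TPM at 0 h to 52.2 at 72 h and 12.8 at 168 h, and it was 0.733 in XEN, a change of -3.11 ± 0.28 from 0 h (limma adjusted p = 8.63e-09).

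Of 3 pocket proteins, Rbl1 fell (-1.11 ± 0.13, limma adjusted p = 1.59e-07), and Rb1 and Rbl2 were not called. Of 10 E2F and DP factors 1 rose and 4 fell at 168 h, E2f6 by 1.54 ± 0.09 and E2f2 by -2.48 ± 0.17 among them. Of 14 G1/S genes, many of which act in DNA replication, 0 were called higher and 4 lower (Mcm2, Mcm3, Mcm6 and Pcna). The list median was -0.67, and Mcm2 changed by -1.17 ± 0.07. Not every gene of that list was lower. Cdc6 was 0.78 higher (limma adjusted p = 1.65e-05), under the minimum, and was called higher at 96 h (1.12). Ccna2 was 0.17 higher (limma adjusted p = 0.0179), also under the minimum. Of 8 genes that act in degradation of these cyclins and inhibitors 2 rose, Fbxo4 by 1.97 ± 0.18 and Cul1 by 1.01. That count is near the share of all genes tested that were called higher, 22.6%. The share called lower was 16.5%. Without replicate 3 in every ES group E2f4 was at -0.95, and E2f4 and Mcm3 were not called, and with median-of-ratios scaling Cul1 was at 0.82.

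**Figure D4:**
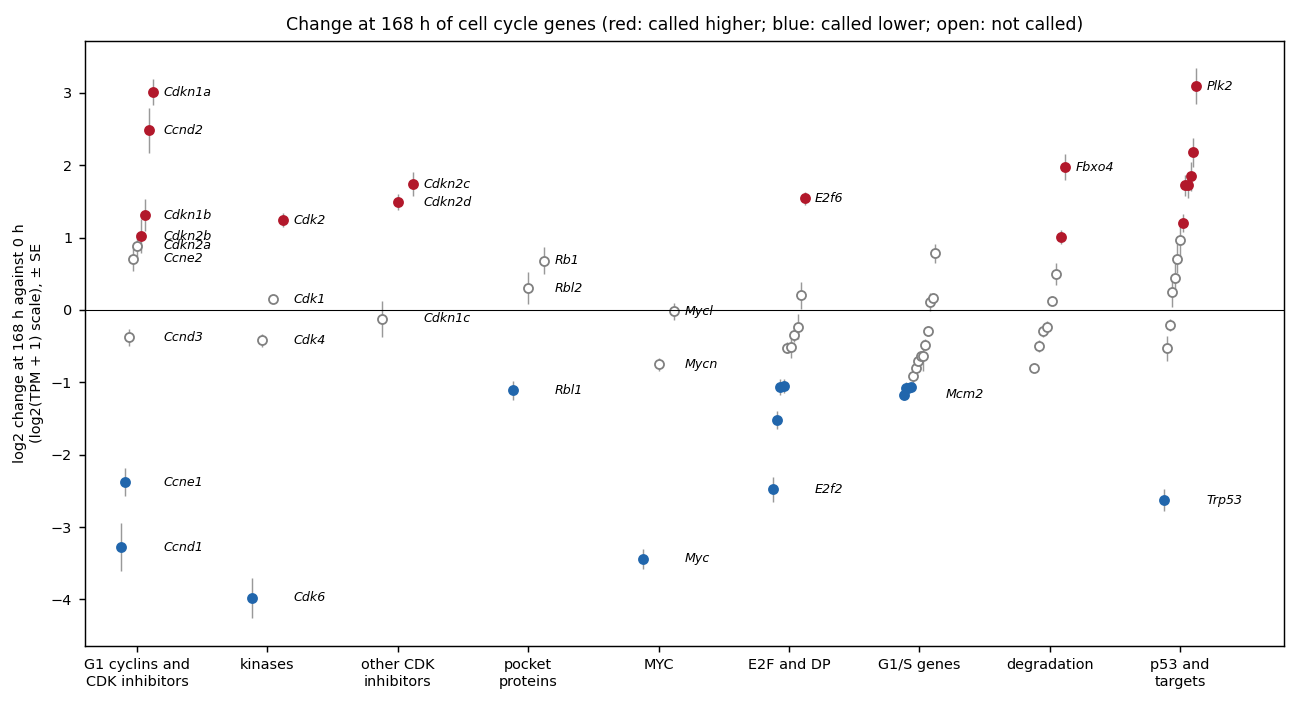
Change at 168 h from 0 h (log2 scale of TPM + 1) of the 9 genes and of 8 lists of related cell cycle genes, 1 point per gene with its SE, red where called higher, blue where called lower and open where not called. Of 14 G1/S genes 4 are called lower and 0 higher, and of 13 p53 and target genes 6 are higher and 1 lower. Over all genes tested 22.6% were called higher and 16.5% lower.

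Among 3 MYC genes Myc fell by 3.44 ± 0.14 at 168 h (limma adjusted p = 6.58e-14). Myc, which drives cell growth and Ccnd2 transcription in other cells, averaged 29.9 TPM at 0 h, 60.4 at 16 h and 1.84 at 168 h, and 18.3 in XEN. Of 13 p53 and target genes 6 rose, beside 22.6% of all genes tested, with a list median of 0.96. Plk2, a p53 target, was at 22.6, 22.2 and 20.0 TPM at 0 h and 152, 164 and 279 at 168 h, with replicate 3 highest as for Cdkn1a, a change of 3.09 ± 0.25. The others that rose were Ccng1, Eda2r, Mdm2, Phlda3 and Sesn2, by 1.20 to 2.18. Of the 6 not called, Gdf15 (-0.53) and Bax (-0.21) were lower, and Aen, Bbc3, Trp53inp1 and Zmat3 were higher by 0.25 to 0.96. Gdf15 was called lower at 48 h (-1.20), 72 h (-1.22) and 96 h (-1.09). Trp53 RNA itself fell, from 379, 382 and 397 TPM to 56.5, 56.5 and 73.4, a change of -2.63 ± 0.15.

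For each of the 9 genes, the 3 genes with the most similar course were taken by Pearson's r over the 8 group means, among 7064 genes with enough level and range. For Cdkn1a they were Gpr107 (0.997), Pafah1b2 (0.996) and Thbd (0.988), for Ccne1 Mrps27 (0.997), Acot7 (0.997) and Prpf31 (0.996), and for Ccnd2 Igfbp4 (0.996), Cnn2 (0.993) and Fst (0.993). Those of Ccnd1 were D16Ertd472e (0.994), Myl6b (0.994) and Cry1 (0.993), and those of Ccnd3 were Nr4a1 (0.995), Akap11 (0.994) and Brsk1 (0.986). For Ccne2 they were Alg3 (0.991), Msn (0.991) and Atp2a2 (0.989), and for Cdkn1b Pawr (0.986), Bcl2l2 (0.979) and Camk2d (0.976). For Cdkn2a they were Adamts15 (0.990), Klc2 (0.984) and Fndc4 (0.982), and for Cdkn2b Cald1 (0.984), Fas (0.979) and Robo1 (0.976). These values describe 8 means, and each named gene is the best of all those compared.

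The siRNA experiment compared levels between cells given control siRNA and cells given siRNA against Oct4, both at 48 h of Dox. Pou5f1, which encodes OCT4, was lower in all siOct4 libraries than in any siCTL library (957 ± 183 TPM with siCTL and 331 ± 44.4 with siOct4, SD, n = 6, exact permutation p = 0.00216, the smallest that 12 libraries allow). None of the 7 cyclin and inhibitor genes measured was called by limma with a minimum change of 0.5, where 2.67% of the 6264 genes tested were. An unadjusted limma p under 0.05 was found in 1 of the 7, Ccnd3, and in 867 of the 6264. The median change was 0.15 over the 7 and -0.12 over all genes tested. Higher changes made up 35.3% of all calls, and 48.5% with median-of-ratios scaling, which put the all-gene median at 0.01. The sum of the 5 fibroblast markers in this table was 26.1 to 210.0 TPM with siCTL and 27.8 to 213 with siOct4. Within each group libraries 1 and 2, 3 and 4, and 5 and 6, called consecutive here, were most alike (r of 0.978 to 0.990, except 0.938 for siCTL 3 and 4). The study describes the 6 knockdowns as independent.

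Ccnd3, cyclin D3, was higher with siOct4 in every numbered pair. It was at 49.9 TPM (lowest), 65.9 (median) and 83.8 (highest) with siCTL and at 64.0, 87.3 and 137 with siOct4, so that the groups overlapped. The change was 0.49 ± 0.21 (limma adjusted p = 0.313). With the replicate block, which the pairing of the libraries calls for, the SE was 0.11 and the limma adjusted p 0.0221, and 8.57% of all genes were called. The change stayed under the minimum of 0.5. The pairs differed by 0.35 to 0.85, and the paired exact permutation p was 0.0312, the smallest that 6 pairs allow, in 1 of 7 genes so tested. After Benjamini-Hochberg adjustment over those genes it was 0.219. That test takes the pairs as independent. With consecutive libraries averaged the change was 0.48 (limma adjusted p = 0.773, exact permutation p = 0.300).

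Cdkn1a (p21) was at 18.0, 38.5 and 74.5 TPM (lowest, median and highest) with siCTL and at 31.9, 54.3 and 114 with siOct4. It was higher in 5 of 6 pairs, which ranged from -1.03 to 2.16, and the change was 0.68 ± 0.38 (limma adjusted p = 0.478, exact permutation p = 0.165). Without replicate 5 or 6 the change was 0.41 or 0.38, without replicate 4 it was 1.02, and none of these was called. Within the siOct4 group, libraries 5 and 6 held the highest levels, 113 and 114 TPM, and the highest fibroblast sums, 213 and 191 TPM. With the fibroblast score as a covariate the change was 0.90 ± 0.16 (limma adjusted p = 0.00671) and was called.

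The other 5 genes overlapped between siCTL and siOct4. Ccnd1 (cyclin D1) was at 6.07, 17.7 and 24.3 TPM with siCTL and 5.42, 12.4 and 32.3 with siOct4, a change of -0.12 ± 0.42. Ccne1 was at 95.0, 137 and 203 TPM with siCTL and 85.8, 146 and 189 with siOct4, a change of -0.01 ± 0.23. Cdkn2b was at 2.30, 4.23 and 7.30 TPM and 2.26, 7.17 and 14.1, a change of 0.49 ± 0.41 (limma adjusted p = 0.679) that was 0.15 without replicate 5, 0.24 without replicate 6 and 0.78 without replicate 4. Ccnd2 and Cdkn1b differed by 0.15 ± 0.44 and -0.00 ± 0.22, also with overlap. With SEs of 0.41 to 0.44 in Ccnd1, Ccnd2 and Cdkn2b, a change of 0.5 was not detectable there.

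Of the 3 other CDK inhibitors listed, Cdkn1c was called higher with siOct4. It was at 7.54, 11.9 and 16.5 TPM (lowest, median and highest) with siCTL and at 38.8, 51.4 and 152 with siOct4, with no overlap. It rose by 2.40 ± 0.34 (limma adjusted p = 0.00169), and with consecutive libraries averaged the change was 2.39 with a limma adjusted p of 0.0990. Of the other listed genes in this table, 0 of 2 kinases and 0 of 7 p53 and target genes were called, where 2.67% of all genes were. With the replicate block 1 of the 2 kinases, Cdk2, was called lower (a change of -0.53), where 8.57% of all genes were called.

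**Figure D5:**
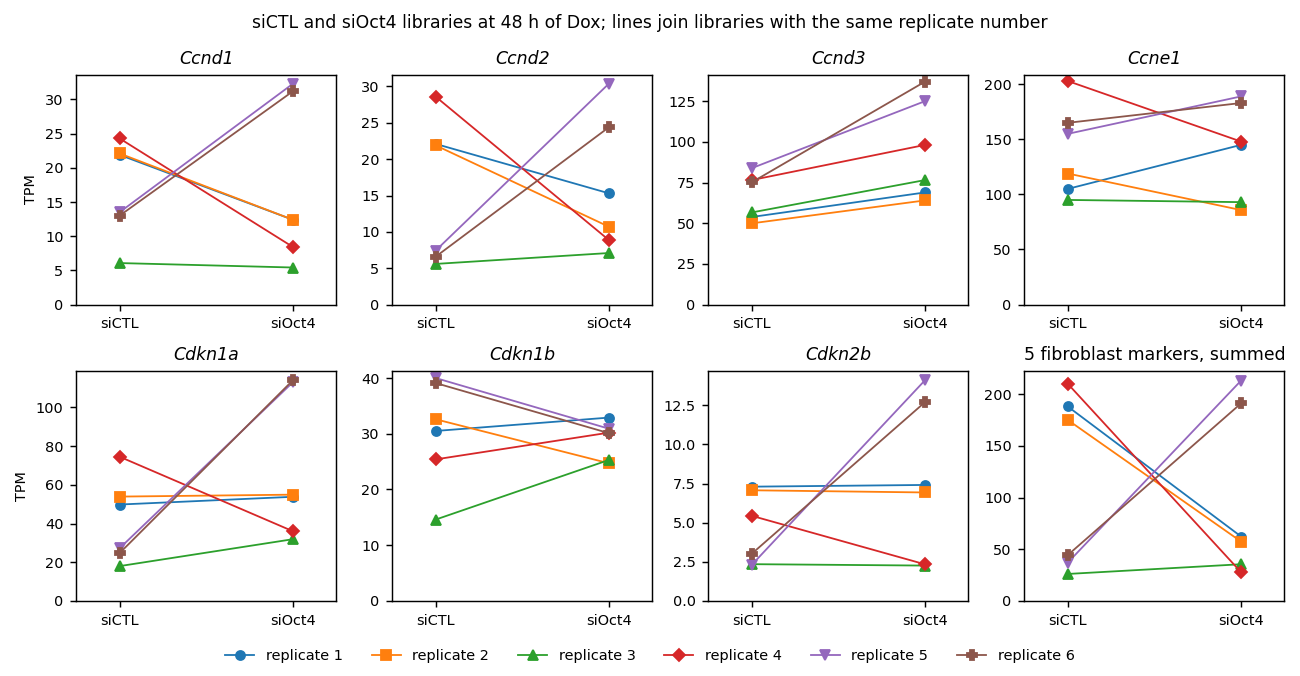
Level (TPM, linear axes from 0, each with its own scale) of the 7 genes measured in the siRNA experiment and the summed level of 5 fibroblast markers, in 6 siCTL and 6 siOct4 libraries at 48 h of Dox, with lines joining libraries of the same number. Ccnd3 is higher with siOct4 in all 6 pairs. The siOct4 libraries 5 and 6 have the highest fibroblast sums of that group (213 and 191 TPM). They also have its highest Ccnd1, Ccnd2, Ccnd3, Ccne1, Cdkn1a and Cdkn2b, but not its highest Cdkn1b.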

How the data were processed

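RNA was sequenced from polyA-selected, strand-specific libraries. Per the labels and submitters' processing notes, the authors used bcl2fastq, cutadapt, STAR, RSEM and mm10, with versions and annotation not given in the sources used here, and left out outlying libraries. The deposited values are TPM, so the depth is unknown. The induction table holds every gene, and the siRNA table a part of them, chosen by the authors as GATA6-responsive. Columns of authors' means and gene classes were not used. Levels were tested as log2(TPM + 1) with limma 3.58.1 (R 4.3.3; all libraries of a table, empirical Bayes with trend, robust) over genes whose group mean reached 1 TPM in any group, with Benjamini-Hochberg adjustment and an adjusted p threshold of 0.05. Scripts were tested on simulated data. Exact permutation tests were two-sided, over 924 splits or 64 sign patterns. Genes alike in course reached a mean of 5 TPM and a log2 range of at least 1. The study describes the replicates as independent. Numbers paired the siRNA libraries (deviations correlated above 0.1 in 6 of 6 pairs) but not the induction libraries (16 of 77 pairs). Even so, the fibroblast markers Thy1, Dcn and Lum were highest in replicate 3 in 7 of 7 ES groups. The genes and lists were chosen with earlier results of these data known. Genes named are the 9 members, the called or largest changes in the lists, and 3 most alike genes each. Positions are from GENCODE M21 (mm10).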

Additional observations from a re-analysis of the deposited data

How the results depend on the processing

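Of 31 called changes of the 9 genes, over 455 alternative fits, 443 kept direction and call, 12 lost the call and 0 reversed. The cause was not tested. Dropping the minimum change cannot remove a call, and the fits share libraries, so the 455 fits are not independent checks. Alternatives were pseudocount, filter, scaling, thresholds, replicate block, fitting only the compared groups and leaving out libraries. For siOct4 the fibroblast score was also used as a covariate. The alternatives without replicate 3 in every ES group or with averaged siRNA libraries were chosen after seeing the data. The count of members called between XEN and 168 h was 4 with no minimum change instead of 2, and that with siOct4 was 1 with the fibroblast covariate instead of 0. The replicate block left the counts at 7 (any Dox time), 6 (168 h), 8 (XEN against 0 h), 2 (XEN against 168 h) and 0 (siOct4), and no member call changed with it. For siOct4, median-of-ratios scaling turned Ccnd1, Ccne1 and Cdkn1b to 0.02, 0.14 and 0.15, and the covariate to 0.10, 0.04 and 0.02. Between 96 and 168 h 68.1% of all calls were higher, and 53.7% with that scaling. Changes that turned sign were small and uncalled. Without replicate 3 in every ES group these were, at 16 h, Ccnd2 (0.06), Ccnd3 (0.07) and Cdkn2a (-0.05), at 24 h Ccnd2 (0.19), at 72 h Ccne2 (-0.09) and Cdkn1a (-0.02), and between XEN and 168 h Ccnd2 (-0.01). Leaving out 1 library gave, at 16 h, Ccnd2 -0.42 to 0.34, Ccnd3 -0.24 to 0.06, Ccne2 -0.00 to 0.18 and Cdkn2a -0.05 to 0.20, at 24 h Ccnd2 -0.34 to 0.42, at 48 h Cdkn2b -0.30 to 0.08, and at 72 h Ccne2 -0.15 to 0.25 and Cdkn1a -0.08 to 0.41. It gave Ccnd3 -0.00 to 0.30 in XEN against 0 h, and Ccnd2 -0.01 to 0.18 and Ccne1 -0.04 to 0.07 in XEN against 168 h. With siOct4 it gave Ccnd1 -0.39 to 0.14, Ccnd2 -0.20 to 0.49, Ccne1 -0.10 to 0.08 and Cdkn1b -0.15 to 0.07, and, with no change of sign, Cdkn1a 0.38 to 1.02 and Cdkn2b 0.15 to 0.78.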
